A study of Mus musculus with 6 samples.

Results

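TNF superfamily genes were measured in mouse adipose-derived stem cells (ADSC), the stromal cells that grow out of fat tissue in culture. Of the 18 that were tested, 10 were lower and 3 higher in the libraries labelled as overexpressing the integrins VLA-4 and LFA-1 than in the mock libraries. Members were the protein-coding genes whose symbol starts with Tnfsf (ligands) or Tnfrsf (receptors) followed by a number, which gave 31 genes, 11 ligands and 20 receptors, of 56748 genes in the table. At an adjusted p under 0.05, 3 receptors (Tnfrsf21, Tnfrsf10b and Tnfrsf22) rose, 6 receptors (Tnfrsf11b, Tnfrsf26, Tnfrsf1b, Tnfrsf23, Tnfrsf12a and Tnfrsf1a) fell, and 4 ligands (Tnfsf18, Tnfsf13b, Tnfsf9 and Tnfsf15) fell while no ligand rose. The farthest apart between groups was Tnfrsf11b (osteoprotegerin), which was 4.07-fold lower. Across the whole table, 22.3% of 14502 tested genes rose and 23.0% fell, 45.3% in all, so a call by itself is common in these data.

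The groups were 3 libraries of ADSC given an empty vector (mock, with the genotype entered as WT) and 3 of ADSC that received Vla4 and Lfa1 together. The series' design text speaks instead of unmodified cells as the control, so what the mock cells carried is not settled by the labels. All cultures were kept in normal-glucose DMEM with fetal bovine serum and antibiotics. No promoter, vector type, clone, donor animal or age is stated, and no label ties the libraries to cultures grown apart, so the p-values reflect how far these libraries scatter, and that scatter may be technical only. The question was what the 2 integrins do to the transcriptome of the cells.

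The libraries held 15723888 to 18381083 counts, and 3 counts, taken as the limit of detection, corresponded to 0.160 to 0.185 CPM, that is counts divided by the TMM-scaled total of their library. The introduced subunits did not follow the label. Itga4 had 89 to 141 counts in the mock libraries and 42 to 46 in those labelled overexpressing, and Itgb1 fell to 0.800 of its mock level. Itgal had 7 counts in each group and Itgb2 had 38 and 15. Directions below are therefore between libraries as labelled. Whether the labels were exchanged, or whether introduced copies are missed by the gene models counted, was not tested, and an exchange would turn every direction given here. The 10 mesenchymal markers summed to 22236 to 23910 CPM in mock and 10088 to 12026 CPM in the other libraries, most of it from the collagens Col1a1 (mean 13011 and 5864 CPM) and Col1a2 (6365 and 2890 CPM). Of these markers 7 fell, Thy1 and Pdgfrb among them, beside 23.0% of all tested genes. Pdgfra, Cd44 and Nt5e were not called, and Nt5e (CD73) had only 20 and 28 counts. The 10 macrophage markers summed to 21.7 to 25.2 CPM in mock and 16.9 to 20.6 CPM in the other libraries. Of the 4 tested, Csf1r fell (mean 13.1 and 8.42 CPM), and Lyz2 (201 and 140 counts), Cd68 (161 and 209) and Cd14 (113 and 154) were not called, while Ptprc, the pan-leukocyte marker, had 8 and 5 counts. The 9 lymphocyte markers summed to at most 0.737 CPM, with Ms4a1 and Cd2 at 0 counts. The 8 endothelial markers summed to 16.1 to 19.5 CPM in mock and 22.1 to 22.9 CPM in the other libraries, and Tek alone (mean 6.02 and 15.5 CPM) was called higher. Pecam1 fell from 67 to 10 counts, Cdh5 (260 and 199 counts) and Kdr (167 and 117) were not called, and Emcn, Tie1, Erg and Vwf, not tested, had 74 and 12, 26 and 3, 12 and 4, and 22 and 21 counts. The 7 Schwann cell markers summed to 15.8 to 16.4 CPM in mock and 4.31 to 5.11 CPM in the other libraries, where Cdh19 and Foxd3 were at 0 counts and most of the sum was S100b (193 and 203 counts, not called). The mesenchymal, macrophage, endothelial and Schwann sums each separated the groups, as do the called members, and their part in those differences was not tested. In bulk RNA, fewer cells of a type and less RNA per cell cannot be told apart.

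TNF superfamily ligands are mostly membrane proteins that assemble as trimers and can be shed, and they bind receptors with cysteine-rich repeats outside the cell. Receptors with a death domain (such as Tnfrsf1a, Tnfrsf10b and Tnfrsf21) can recruit Tradd or Fadd and start cell death or NF-kB signalling, while others bind TRAF proteins and mainly drive NF-kB and MAP kinase signalling. A further set binds ligand without a complete signalling tail or as a soluble protein, and so competes with the signalling receptors. In stromal cells the family is known for osteoprotegerin, which blocks the osteoclast factor RANKL, and for the response to TNF and TWEAK in inflamed tissue.

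The sequences just upstream of the start sites are shown for 3 of the genes that fell, because their windows, and among called members otherwise only that of Tnfrsf1a, held a match to one of 5 motifs that were searched. They are the last 250 bases before a RefSeq start site (GRCm38.p6, a different build from the mm39 of the expression table), with matches in capitals.
Tnfrsf1b, chr4:145246871-145247120, minus strand: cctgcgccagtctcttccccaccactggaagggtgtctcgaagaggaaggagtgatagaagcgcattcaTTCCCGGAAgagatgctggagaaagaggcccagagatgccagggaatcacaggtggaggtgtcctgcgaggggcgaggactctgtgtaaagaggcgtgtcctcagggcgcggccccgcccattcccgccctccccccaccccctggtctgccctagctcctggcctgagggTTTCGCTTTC
Tnfsf13b, chr8:10006383-10006632, plus strand: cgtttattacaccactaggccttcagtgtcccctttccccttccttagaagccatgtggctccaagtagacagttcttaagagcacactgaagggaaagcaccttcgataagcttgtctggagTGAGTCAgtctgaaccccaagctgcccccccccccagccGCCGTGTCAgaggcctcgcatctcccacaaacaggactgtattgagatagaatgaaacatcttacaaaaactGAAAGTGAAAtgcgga
Tnfsf18, chr1:161494407-161494656, plus strand: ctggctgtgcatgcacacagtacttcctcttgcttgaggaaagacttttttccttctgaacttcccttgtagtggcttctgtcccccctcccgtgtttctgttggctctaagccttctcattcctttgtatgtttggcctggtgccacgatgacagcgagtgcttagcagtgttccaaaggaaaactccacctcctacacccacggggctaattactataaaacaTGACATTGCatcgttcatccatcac

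The capitals mark, in Tnfrsf1b, a match to the GAS motif that begins 181 bases before the start site and one to the ISRE core that begins 10 bases before it. In the window of Tnfsf13b they mark AP-1 (127 bases) and, both on the other strand, the antioxidant response element core (88 bases) and the ISRE core (16 bases). In that of Tnfsf18 they mark the antioxidant response element core, 25 bases before the start. The motifs were the ISRE core (TTTC repeated after a gap of 2 bases, bound by interferon-activated ISGF3 and by IRF proteins), TTCNNNGAA (GAS, bound by STAT dimers), TGANTCA (AP-1), TGACNNNGC (antioxidant response element core, bound by NRF2) and the kappaB consensus, each on both strands. GAS and AP-1 are palindromes, and no 2 matches overlapped in the printed windows. The RefSeq table matched 24 of the 31 members, in 28 windows, and 8 of the 13 called members, in 9 windows. The ISRE core was found in 4 of the 28 windows (Tnfrsf14, Tnfrsf17, Tnfrsf1b and Tnfsf13b) and in 2.98% of 32851 windows of all genes. GAS was found in 5 member windows against 7.02% of all windows, AP-1 in 5 against 6.75%, the antioxidant core in 5 against 10.2% and the kappaB consensus in 3 (Tnfrsf8, Tnfrsf9 and Tnfrsf25) against 7.25%. Of called members not printed, Tnfrsf1a had a GAS match 244 bases before its start, and Tnfrsf12a, Tnfrsf21, Tnfrsf23 and Tnfsf15 had no match. The window of the other RefSeq start of Tnfsf13b (chr8:10006217-10006466), which overlaps the printed one, had none either. Which of these starts belongs to the counted gene model was not tested. A match in such a short window is a description of its letters and not a binding site.

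Of the 31 members, 29 had at least 1 count and 18 passed the filter on low counts, 13 receptors and 5 ligands. Because a gene can pass that filter through the group in which it is high, the 18 are not a neutral sample of the family. Of the 18, 13 were called, 3 higher and 10 lower, by the edgeR quasi-likelihood test with Benjamini-Hochberg adjustment over all tested genes, of which 45.3% were called. Among the 12672 tested protein-coding genes, the like set for the members, 48.9% were called. All 5 tested ligands had a negative log2 fold change, so none of them could be called higher at any threshold. DESeq2, run on the same counts, called no ligand higher either. The values of the groups did not overlap for 14 of the 18, 3 higher and 11 lower, while 53.4% of all tested genes had groups that did not overlap. The median log2 fold change, labelled overexpressing minus mock, was -0.37 over the 13 tested receptors and -1.11 over the 5 tested ligands, and 0.0052 over all tested genes. Called and at least 2-fold lower were 5 of the 18 (Tnfrsf11b, Tnfrsf26, Tnfsf18, Tnfsf13b and Tnfsf9), against 4.84% of all tested genes, and none was called and 2-fold higher, against 3.48% of all tested genes.

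**Figure D1:**
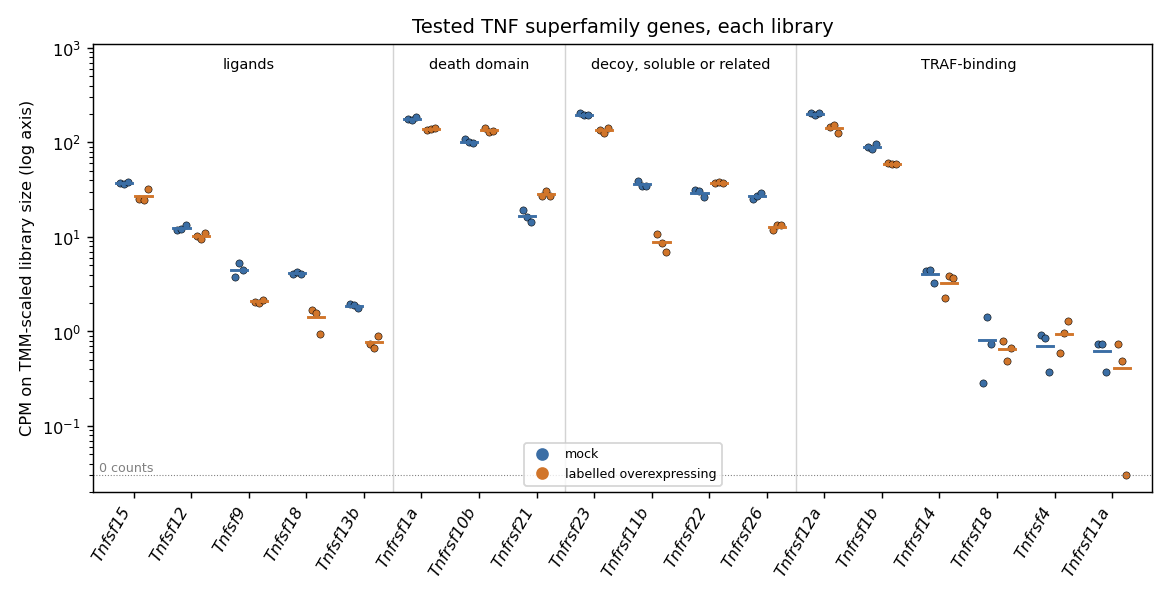
CPM of each tested member in each library (points; log axis) with the group mean (line), mock in blue and the libraries labelled overexpressing in orange, ordered by role. Tnfrsf12a, Tnfrsf23 and Tnfrsf1a lie above 100 CPM in all libraries, the 5 ligands range from 0.668 to 37.8 CPM, the library without counts of Tnfrsf11a is drawn on the dotted line, and Tnfrsf11b separates the groups most widely (34.4 to 38.9 CPM against 7.004 to 10.7 CPM).

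Among the ligands, Tnfsf15 (TL1A; ENSMUSG00000050395, chromosome 4, 63642840 to 63663350, mm39), the ligand of Tnfrsf25, had the highest CPM. CPM are not scaled to transcript length, and per length Tnfsf12 was higher, as given below. Tnfsf15 had 37.0, 36.7 and 37.8 CPM in mock replicates 1 to 3 and 25.1, 24.3 and 31.9 CPM in the libraries labelled overexpressing. All mock libraries were above all others, and overexpressing replicate 3 was nearest to them. The log2 fold change was -0.45 (SE 0.095, edgeR adjusted p = 0.000427). Its receptor Tnfrsf25 had 1 count over the mock libraries and 9 over the others, 8 of them in overexpressing replicate 2.

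Tnfsf18 (GITR ligand; chromosome 1, 161322224 to 161332859), which costimulates T cells through Tnfrsf18, had 4.09, 4.31 and 4.08 CPM in mock and 1.70, 1.58 and 0.945 CPM in the libraries labelled overexpressing. The groups were well apart, with a 2.94-fold lower level (log2 fold change -1.56, SE 0.26, edgeR adjusted p = 3.52e-05). Tnfsf9 (4-1BB ligand; chromosome 17, 57412325 to 57414757), another T cell costimulator, had 3.75, 5.27 and 4.45 CPM in mock and 2.07, 2.00 and 2.17 CPM in the others. The lowest mock library was above every library of the other group, and the log2 fold change was -1.11 (SE 0.23, edgeR adjusted p = 0.000373). An lncRNA on the opposite strand, Gm11110, overlaps Tnfsf9 and had 81 and 51 counts per group. Whether the counting used strand is not stated, so reads of the 2 cannot be told apart with certainty.

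Tnfsf13b (BAFF; chromosome 8, 10056467 to 10089072), the survival factor of B cells, was low but steady within groups. It had 1.93, 1.93 and 1.79 CPM in mock and 0.745, 0.668 and 0.889 CPM in the libraries labelled overexpressing, 97 and 41 counts in all. The difference was 2.44-fold (log2 fold change -1.29, SE 0.34, edgeR adjusted p = 0.00404). Of the receptors of BAFF, Tnfrsf13b had 2 and 6 counts, Tnfrsf13c 1 and 3, and Tnfrsf17 none.

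Tnfsf12 (TWEAK), a ligand made by many cell types, was the only tested ligand that was not called. It had 12.0, 12.0 and 13.3 CPM in mock and 10.3, 9.47 and 10.9 CPM in the others, which do not overlap, but the log2 fold change of -0.28 (SE 0.12) had an edgeR adjusted p of 0.0728. Its locus is shared: the readthrough gene Tnfsfm13, which joins Tnfsf12 to Tnfsf13, held 27 and 40 counts, and the antisense lncRNA Tnfsf13os held 16 and 26. Of the 50-base words of the longest Tnfsf12 transcript (GENCODE M21), 49% also occur in transcripts of Tnfsfm13, so its counts, and those of Tnfsf13 with 51.9%, are uncertain.

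The other 6 ligands did not pass the filter. RANKL (Tnfsf11), which drives osteoclast formation, had 17 counts over mock, 11 of them in replicate 1, and 3 over the other libraries, which gave a ratio of 0.17 (95% counting interval 0.032 to 0.589). Tnfsf8 (CD30 ligand) had 34 and 16 counts (ratio 0.454, interval 0.234 to 0.846), TRAIL (Tnfsf10) 10 and 2 (ratio 0.193, interval 0.021 to 0.906), and Tnfsf13 (APRIL) 10 and 18. Tnfsf4 (OX40 ligand) had 1 count in all and Tnfsf14 (LIGHT) none, below 0.160 to 0.185 CPM in each library. Counting intervals cover counting error only, and without the filter no ligand of this set was called (edgeR adjusted p = 0.125 for Tnfsf11, and 0.255 to 0.579 for the others with a count).

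Death domain receptors went both ways. Tnfrsf1a (TNFR1; ENSMUSG00000030341, chromosome 6, 125326325 to 125339447), the widely expressed receptor of TNF, had 177, 174 and 185 CPM in mock and 136, 138 and 141 CPM in the libraries labelled overexpressing. Every mock library was higher, by a small amount (log2 fold change -0.37, SE 0.055, edgeR adjusted p = 1.01e-05). Tnfrsf10b (the mouse TRAIL receptor with a death domain; chromosome 14, 70004921 to 70021860) had 107, 100.2 and 98.3 CPM in mock and 143, 130.3 and 132 CPM in the others. It rose 1.32-fold (log2 fold change 0.40, SE 0.061, edgeR adjusted p = 1.07e-05), with no overlap. In its longest protein-coding transcript (GENCODE M21), 9.07% of the 50-base words also occur in other genes, and how such reads were counted is not given. Tnfrsf21 (DR6; chromosome 17, 43327446 to 43400080), a receptor known from neurons and T cells, had 19.4, 16.3 and 14.3 CPM in mock and 27.2, 30.4 and 27.3 CPM in the others. It rose 1.69-fold (log2 fold change 0.76, SE 0.11, edgeR adjusted p = 3.42e-06), the largest rise among the tested members.

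In the decoy, soluble and related group all 4 receptors were called, 1 higher and 3 lower, while 45.3% of all tested genes were called. Tnfrsf11b (osteoprotegerin; ENSMUSG00000063727, chromosome 15, 54114015 to 54141880), the secreted receptor that binds RANKL and TRAIL, had 38.9, 34.4 and 34.4 CPM in mock and 10.7, 8.62 and 7.004 CPM in the libraries labelled overexpressing. The groups are far apart, and the log2 fold change was -2.03 (SE 0.12, edgeR adjusted p = 4.18e-12). The signalling receptor of RANKL, Tnfrsf11a (RANK), had only 32 and 22 counts, with none in overexpressing replicate 3, and was not called (log2 fold change -0.58, SE 0.63, edgeR adjusted p = 0.482). Leaving out overexpressing replicate 3 moved its log2 fold change to 0.0012.

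Tnfrsf22, Tnfrsf23 and Tnfrsf26 lie next to each other on one strand of chromosome 7 between 143161396 and 143239609, and their differences did not share a direction. Tnfrsf22 and Tnfrsf23, mouse TRAIL-binding receptors without a death domain, had opposite calls. Tnfrsf22 had 31.7, 30.5 and 26.2 CPM in mock and 36.8, 38.5 and 37.5 CPM in the libraries labelled overexpressing (log2 fold change 0.35, SE 0.085, edgeR adjusted p = 0.00188). Tnfrsf23 had 202, 193 and 193 CPM in mock and 136, 125 and 142 CPM in the others (log2 fold change -0.54, SE 0.059, edgeR adjusted p = 1.05e-07). Neither gene's groups overlapped. Tnfrsf26, a related receptor of the same cluster, had 25.03, 27.3 and 29.0 CPM in mock and 12.0, 13.4 and 13.3 CPM in the others, a 2.10-fold lower level (log2 fold change -1.07, SE 0.10, edgeR adjusted p = 1e-08). Of the 50-base words of the longest protein-coding transcript (GENCODE M21), 29.9% in Tnfrsf23 and 28.1% in Tnfrsf22 also occur in another gene, largely in each other, and none in Tnfrsf26. How the authors' counting treated reads that match 2 genes is not given, so the split between Tnfrsf22 and Tnfrsf23 is uncertain.

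Among the TRAF-binding receptors, Tnfrsf12a (Fn14; ENSMUSG00000023905, chromosome 17, 23894419 to 23896442), the receptor of TWEAK, had 204, 193 and 204 CPM in mock and 144, 154 and 125 CPM in the libraries labelled overexpressing. The spread within the second group was wider, but its highest library stayed below the mock libraries (log2 fold change -0.51, SE 0.066, edgeR adjusted p = 1.56e-06). Tnfrsf1b (TNFR2; chromosome 4, 144940033 to 144973440), the second receptor of TNF and one of the genes whose upstream window is printed, had 89.3, 85.9 and 95.9 CPM in mock and 60.9, 59.4 and 59.1 CPM in the others. That is 1.51-fold lower (log2 fold change -0.59, SE 0.065, edgeR adjusted p = 1.04e-07), with no overlap.

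The other TRAF-binding receptors were low and not called. Tnfrsf14 (HVEM), the receptor of LIGHT, had 3.27 to 4.42 CPM in mock and 2.29 to 3.82 CPM in the others (edgeR adjusted p = 0.284). Tnfrsf18 (GITR) had 42 and 35 counts (edgeR adjusted p = 0.639) and Tnfrsf4 (OX40) 37 and 50 (edgeR adjusted p = 0.5). Without mock replicate 2, the log2 fold change of Tnfrsf18 turned from -0.31 to 0.36, still without a call. Both are receptors of activated T cells, and the lncRNA Gm16008 on the other strand of Tnfrsf18 held 32 and 27 counts. Tnfrsf9 (4-1BB) and Tnfrsf8 (CD30) did not pass the filter and had 21 and 4 counts (ratio 0.184, interval 0.0459 to 0.545) and 26 and 7 counts (ratio 0.26, interval 0.0953 to 0.615). Without the filter they had edgeR adjusted p-values of 0.0821 and 0.0972. Tnfrsf19 had 2 and 7 counts. The largest total among the 13 members that did not pass was 50 counts and the smallest among those that did was 54.

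**Figure D2:**
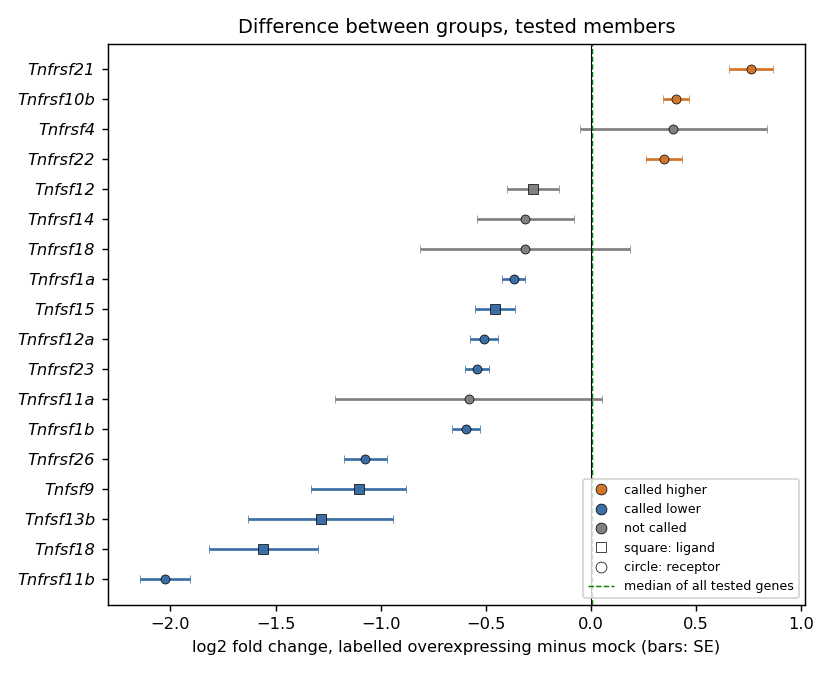
Log2 fold change (labelled overexpressing minus mock) of the 18 tested members with its SE, squares for ligands and circles for receptors, coloured by the edgeR call. The values run from -2.03 (Tnfrsf11b) to 0.76 (Tnfrsf21), and the dashed line at 0.0052 is the median of all 14502 tested genes.

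Levels of different genes were compared per transcript length, with the deposited FPKM (fragments scaled to transcript length and library size). The highest level of the family was that of Tnfrsf12a (mean 103 FPKM in mock and 72.2 in the libraries labelled overexpressing), followed by Tnfrsf1a (68.6 and 52.9 FPKM) and Tnfrsf23 (49.3 and 33.7 FPKM). Next came Tnfrsf1b and Tnfrsf10b, in an order that differed between the groups. Tnfrsf1b had 22.5 to 24.9 FPKM in mock and 15.3 to 15.8 in the others, and Tnfrsf10b 17.9 to 19.6 and 23.5 to 26.0 FPKM, so that every mock library had more Tnfrsf1b and every other library more Tnfrsf10b. Within each group the ranges of these 5 did not overlap. Tnfrsf11b was sixth in mock, at 12.7 FPKM, and had 3.09 FPKM in the others, below the means of Tnfrsf22 (8.83), Tnfrsf21 (6.81), Tnfsf12, Tnfsf15 and Tnfrsf26 (3.96), of which only the range of Tnfrsf26 overlapped its own. In mock those 5 had means of 4.03 to 8.38 FPKM, with Tnfrsf26 and Tnfsf12 overlapping at the top and Tnfrsf21 lowest. Tnfsf9 had 2.89 to 4.09 FPKM in mock and 1.53 to 1.67 in the others. Tnfrsf14 had means of 2.79 and 2.24 FPKM and Tnfsf18 of 2.00 and 0.675 FPKM, and every other member had a mean of at most 0.685 FPKM in either group.

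The 3 receptors at the top made up 73.8% ± 0.55 of the summed FPKM of all 20 receptors in mock and 70.5% ± 0.41 in the libraries labelled overexpressing (SD, n = 3). The summed FPKM of the receptors was 305, 293 and 300.4 in mock and 228, 228 and 219 in the others, and that of the 11 ligands was 20.1, 21.0 and 21.1 against 13.8, 12.8 and 15.4. In each library the receptors together were more abundant than the ligands together, and both sums were lower in all libraries labelled overexpressing.

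Ratios between members in the same library do not depend on its depth or scaling. The 6 ratios taken were picked after the values had been seen and are given without a test. A ratio of a gene called higher to one called lower restates those calls. The ratio of Tnfrsf22 to Tnfrsf23 was 0.147, 0.148 and 0.128 in mock and 0.253, 0.289 and 0.247 in the libraries labelled overexpressing. The ratio of Tnfrsf10b, the TRAIL receptor with a death domain, to the sum of Tnfrsf22 and Tnfrsf23 was 0.336, 0.328 and 0.328 in mock and 0.607, 0.586 and 0.538 in the others. Another split of the same reads between Tnfrsf22 and Tnfrsf23 would change their sum little, as the table gives them lengths of 4217 and 3962 bases. Reads that were dropped, or that also match Gm47486, could still change the sum, which was not tested. The ratio of Tnfrsf21 to Tnfrsf1a was 0.059 ± 0.01 in mock and 0.129 ± 0.0085 in the others (SD, n = 3), and that of Tnfrsf1a to Tnfrsf1b was 2.92 ± 0.072 and 3.41 ± 0.11. For Tnfrsf22 to Tnfrsf26 the ratio was 0.836 ± 0.14 in mock and 2.23 ± 0.10 in the others. The ratio of the receptor Tnfrsf12a to its ligand Tnfsf12 overlapped between groups, at 12.0 to 13.4 and 8.94 to 12.8.

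**Figure D3:**
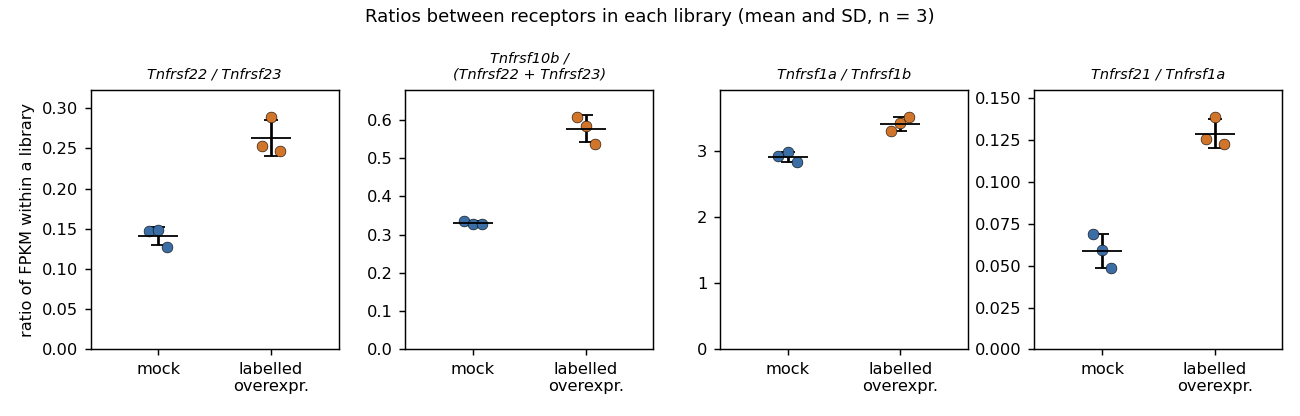
Ratio of deposited FPKM between receptors within each library (points), with the mean and SD of 3 libraries per group, on axes that start at 0. The 4 ratios shown, of 6 taken, were all higher in each library labelled overexpressing than in any mock library, with Tnfrsf10b to the sum of Tnfrsf22 and Tnfrsf23 at 0.331 ± 0.0049 and 0.577 ± 0.035. The ratio of Tnfrsf12a to Tnfsf12, not shown, overlapped between groups.

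Superfamily members that carry other symbols were listed apart. Of 7 such ligands, Eda (ectodysplasin A) alone was tested and was not called (log2 fold change 0.12, SE 0.21, edgeR adjusted p = 0.675). Without overexpressing replicate 1 it turned to -0.10. The gene for TNF itself (Tnf) had 1 count over mock and 0 over the others, Lta had 6 and 4, Ltb 1 and 0, Fasl 0 and 1, Cd40lg 0 and 2, and Cd70 0 and 5. Transcripts of the classical ligand were thus at or below the limit of 3 counts in each library, while both of its receptors were among the most abundant members.

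Of 8 such receptors 6 were tested, 4 fell and none rose, beside 23.0% and 22.3% of all tested genes. No such receptor was higher at an unadjusted p under 0.05 or by DESeq2 either. Fas, the death receptor for Fas ligand, had 53.1, 46.1 and 46.3 CPM in mock and 26.1, 23.6 and 23.8 CPM in the libraries labelled overexpressing (log2 fold change -0.98, SE 0.085, edgeR adjusted p = 2.63e-09). Cd40, a costimulatory receptor of antigen-presenting and stromal cells, had 9.37, 8.11 and 11.1 CPM in mock and 4.57, 3.82 and 5.17 CPM in the others (log2 fold change -1.07, SE 0.17, edgeR adjusted p = 2e-05). Both were clearly separated between groups. Relt, an orphan receptor, fell from 21.1 ± 2.53 to 14.2 ± 2.08 CPM (SD, n = 3). Ngfr, the neurotrophin receptor of the family, was at 852 counts in mock and 8 in the others, 7 of them in overexpressing replicate 1. Its log2 fold change of -6.72 moved to -8.84 without that library, still called. Among other cell types it marks Schwann cells and their neural crest precursors. Of the tested markers given above, 4 of 5 Schwann cell and 7 of 10 mesenchymal ones fell too. Whether these falls are linked was not tested. The lymphotoxin receptor Ltbr (114 ± 1.78 and 107 ± 7.46 CPM, edgeR adjusted p = 0.215) and the ectodysplasin receptor Eda2r (99.4 ± 7.46 and 108 ± 5.55 CPM, edgeR adjusted p = 0.126) were not called. With library size as the only scaling, Eda2r was called higher (edgeR adjusted p = 0.00487) and Ltbr changed sign (log2 fold change 0.015). Cd27 had 14 and 22 counts and Edar 1 and 7.

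Inside the cell, 31 of 32 listed adaptors and signalling enzymes were tested, and 8 rose and 8 fell, with a median log2 fold change of 0.039. Of all tested genes, 22.3% rose and 23.0% fell. With library size as the only scaling, 12 of the listed genes rose and 5 fell. Ikbkg (NEMO), the regulatory subunit of the IkB kinase, rose from 89.0 ± 4.29 to 146 ± 3.36 CPM (SD, n = 3; edgeR adjusted p = 1.4e-09), and the ubiquitin ligase Traf6 from 23.8 ± 0.99 to 38.7 ± 1.48 CPM (edgeR adjusted p = 3.34e-07). Cflar (c-FLIP), which restrains caspase 8 at death receptors, rose from 237 ± 11.8 to 303 ± 17.5 CPM (edgeR adjusted p = 3.37e-05). The ubiquitin ligase Birc3 (cIAP2), itself an NF-kB target, fell from 31.2 ± 1.14 to 16.9 ± 0.76 CPM (edgeR adjusted p = 3.39e-08). These 4 were the genes of the list with the smallest p.

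Of 7 tested TNF-induced proteins and A20 partners, 2 rose and 1 fell, beside 22.3% and 23.0% of all tested genes. Tnfaip3 (A20), the enzyme that ends TNF signalling to NF-kB, fell from 52.7 ± 1.31 to 28.2 ± 1.71 CPM (SD, n = 3; log2 fold change -0.90, SE 0.078, edgeR adjusted p = 2.59e-09). Its partner Tnip2 rose by 0.43 (SE 0.12, edgeR adjusted p = 0.00543) and Tnfaip1 by 0.18 (SE 0.055, edgeR adjusted p = 0.0102) on the log2 scale. Tnip1 had a log2 fold change of -0.23 and was not called (edgeR adjusted p = 0.0631), but was called lower in 5 of 11 alternatives, with an edgeR adjusted p from 0.0138 to 0.544 over all of them. Mock replicate 3 stood above the other mock libraries (64.3 against 47.9 and 46.5 CPM), and without it the log2 fold change was -0.07.

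Of the 5 proteases and cofactors that cleave family proteins, the proprotein convertase Furin fell from 216 ± 12.2 to 190 ± 10.5 CPM (SD, n = 3; edgeR adjusted p = 0.0148). Its call was lost without mock replicate 3 (adjusted p = 0.0804), without overexpressing replicate 2 (0.0741) and with library size as the only scaling (0.315). Adam17, the enzyme that sheds TNF and its receptors, had 73.5 ± 0.48 and 78.9 ± 4.95 CPM (edgeR adjusted p = 0.214), Rhbdf2, its cofactor, 28.3 ± 2.26 and 31.7 ± 3.44 CPM (0.159), and Adam10 174 ± 6.86 and 166 ± 4.12 CPM (0.381). None of the 3 was called. With library size as the only scaling, Adam17 and Rhbdf2 were called higher (edgeR adjusted p = 0.0102 and 0.0178).

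**Figure D4:**
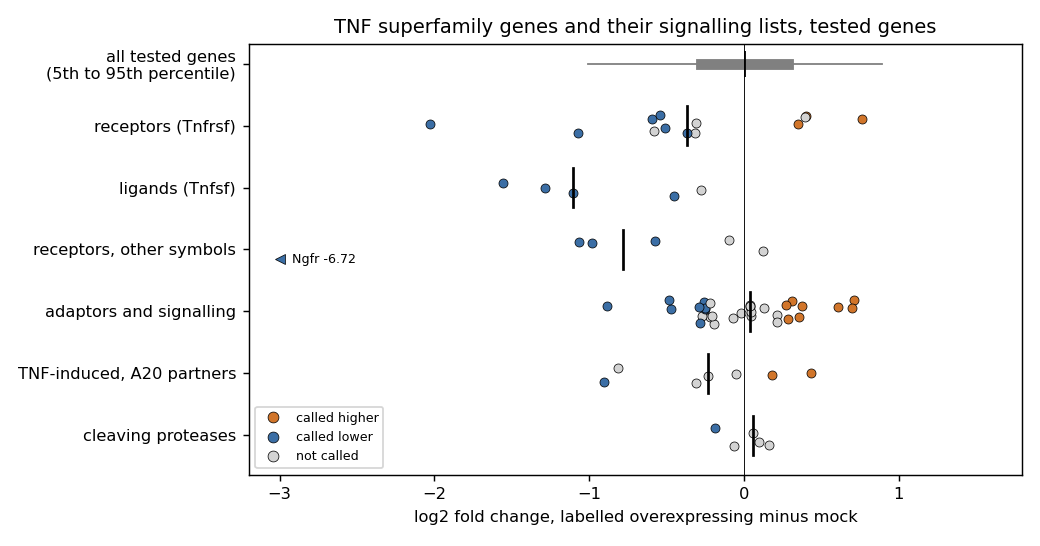
Log2 fold change (labelled overexpressing minus mock) of the tested genes of each group (points, coloured by the edgeR call; vertical bars are medians), beside all 14502 tested genes (box from the 25th to the 75th percentile, line from the 5th to the 95th, -1.01 to 0.89). Ngfr at -6.72 is drawn at the edge, and the adaptors spread to both sides of 0 while the 5 tested ligands are all below it.

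The authors' deposited table, made by a comparison whose tool is not named, compared 28 of the 31 members and had 3 receptors higher, 6 receptors lower and 4 ligands lower at an adjusted p under 0.05. Of the 25991 genes compared in the authors' deposited table, 10.3% were higher and 11.5% lower by that rule. The values of Tnfrsf11b and Tnfrsf21 in the authors' deposited table were log2 fold changes of -2.04 and 0.75. The DESeq2 alternative run here gave the same values for both, so the deposited calls are not separate evidence.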

How the data were processed

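The submitters' processing notes name HISAT2 2.0.5, featureCounts 1.5.0-p3, fastp, StringTie 1.3.3b and mm39. For the annotation, the strand setting and reads that match several genes, the choice is not stated in these sources. For each library the authors deposited whole-number counts per gene, FPKM values per the file headers, a scaled mean signal per group, log2 fold changes and p-values. From the counts, edgeR (version 4.0.16, R version 4.3.3) was run on all genes: TMM scaling, filterByExpr with a minimum count of 10, a model with the group only, and Benjamini-Hochberg adjustment over the 14502 tested genes. CPM are on TMM-scaled library sizes. The SE is the log2 fold change over the square root of F. Count ratios carry exact 95% intervals. Within a group, each pair of libraries differed by more than sampling noise (chi-square 3.55 to 7.47 times its degrees of freedom, for genes with 20 or more counts).

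Tested on simulated data for this comparison (14502 genes), the procedure recovered 90% of 2-fold and 69% of 1.5-fold changes in genes of at least 1 CPM, and 4.79% of its calls were false. The simulation changed only 100 genes by 2-fold and 100 by 1.5-fold, evenly up and down. In the data 45.3% of tested genes were called, so these rates need not hold there. All members are accounted for. From each other list up to 4 genes with the smallest p, and all family genes under other symbols, were named. One lymphocyte marker of the original list is not reported here. Members and lists were chosen with earlier results of these data known. Alternatives were RLE factors, library size only, no filter, DESeq2 (version 1.42.0), a replicate block and leaving out each library.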

Additional observations from a re-analysis of the deposited data

How the results depend on the processing

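All 18 tested members kept their call, or its absence, under the 11 alternatives that were run, so the counts stayed at 3 receptors higher, 6 lower, 0 ligands higher and 4 lower in each, the 6 leave-one-out fits included. The signs held too, except for 2 receptors of low count that were never called: Tnfrsf18 without mock replicate 2 (log2 fold change 0.36, range -0.73 to 0.36 over the leave-one-out fits) and Tnfrsf11a without overexpressing replicate 3 (0.0012, range -1.37 to 0.0012). With library size as the only scaling, the log2 median of all genes was 0.12 in place of 0.0052, and 65.8% of calls were increases (4598, against 2385 decreases) in place of 49.2%. The listed pathway genes called higher went from 10 to 18. It also turned the signs of Adam10 (0.049) and Ltbr (0.015), neither of them called, and leaving out overexpressing replicate 1 turned Eda (-0.10, range -0.10 to 0.32). The cause was not tested. With the replicate block, 3183 genes were higher and 3297 lower, against 3233 and 3339. Deviations of same-numbered libraries correlated by 0.0034 to 0.016, so the numbers were not treated as pairs. The block changed no call of a member, and Tnip1 was called lower with it (adjusted p = 0.0264).

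The 13 members with at most 50 counts in all were left out by the filter; 2 had no counts, and none of the other 11 was called without it (lowest adjusted p = 0.0821). In the simulation, where few genes changed, some 1.5-fold differences in genes of at least 1 CPM were missed. The share missed in the data is not known. Groups of 3 libraries are too small to be examined for single outlying libraries.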
